A study of Homo sapiens with 4 samples.

Results

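Open chromatin was examined around 9 genes of the fatty acid sensing nuclear receptor pathway: the receptor genes PPARA, PPARD, PPARG, RXRA, RXRB and RXRG and the target genes PDK4, ANGPTL4 and CD36. A region belonged to a gene when it overlapped the RefSeq GRCh38 span of that gene extended by 10 kb on both sides. This rule uses no measured value, but the 9 genes were picked with earlier results of these data known. This gave 62 of the 125986 regions in the authors' deposited table, 47 of them at the 6 receptor genes and 15 at the 3 target genes. The cells were A375, a human melanoma line kept in serum-containing medium, and their open chromatin was read by ATAC-seq, a method that inserts sequencing adapters into accessible DNA with a transposase. For 48 h they were exposed to octanoate at 1 mM, a fatty acid of medium chain length, or to isopropanol alone as the vehicle. Each treatment is represented by 2 libraries, 4 in all. All came from this 1 line, and the labels do not say whether libraries of a group came from separate cultures. The p-values thus rest only on these 4 libraries, whose spread may be technical. Their errors come from the authors' fit to the whole table, so a p-value does not measure the spread of a region's own libraries alone.

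The peroxisome proliferator-activated receptors (PPARs) are transcription factors that bind fatty acids and their derivatives. Each pairs with a retinoid X receptor (RXR) on DNA, and the ligand-bound pair recruits coactivators and raises transcription of genes of fatty acid uptake, storage and oxidation. PPARA is best known from liver, PPARG from fat tissue and PPARD from many tissues, and the RXRs also pair with retinoic acid, vitamin D, thyroid hormone and oxysterol receptors. PDK4 restrains the entry of pyruvate into the citric acid cycle, ANGPTL4 inhibits lipoprotein lipase, and CD36 takes up long-chain fatty acids.

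The deposited table held the mean over the 4 libraries of the normalized read count of each region, a log2 fold change of octanoate over vehicle with its standard error, a p-value and an adjusted p-value. It held no column for a single library, so replicate values are not given by group. An adjusted p was given for the 11185 regions whose mean reached 63.8 normalized reads, called tested regions below, and 4 of the 62 regions were among them. The labels give an average of 40000000 to 50000000 paired-end reads per library. Over the tested regions the deposited fold changes were off centre, with a median log2 fold change of 0.19, and 85.7% lay above 0. Of 7 melanocyte lineage genes, all had regions within 10 kb, and of the 5 with a start in the RefSeq table MITF (168 normalized reads) and DCT (30.0) had a region over a start while MLANA, TYR and TYRP1 had none. For 11 genes of other cell types, 0 of the 6 with a listed start had a region over it, but 10 of the 11 had regions within 10 kb, with means of up to 93.3 normalized reads, so presence of a region within 10 kb did not separate the lists.

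The windows below run from 250 bases before to 50 bases after a start, as RefSeq gives them for GRCh38.p14, and each is written 5′ to 3′ on the strand of its gene with CpG dinucleotides in capitals. They are shown to let starts that lay in a region be read beside starts that did not. The windows are chr9:134326205-134326504 for RXRA, chr7:95596467-95596766 for PDK4 (minus strand), chr19:8363905-8364204 for ANGPTL4, chr3:12288810-12289109 for PPARG, and, with no region over the start, chr7:80601957-80602256 for CD36 and chr3:12351167-12351466 for the most downstream start of PPARG. The plus strand applies where none is named.
RXRA: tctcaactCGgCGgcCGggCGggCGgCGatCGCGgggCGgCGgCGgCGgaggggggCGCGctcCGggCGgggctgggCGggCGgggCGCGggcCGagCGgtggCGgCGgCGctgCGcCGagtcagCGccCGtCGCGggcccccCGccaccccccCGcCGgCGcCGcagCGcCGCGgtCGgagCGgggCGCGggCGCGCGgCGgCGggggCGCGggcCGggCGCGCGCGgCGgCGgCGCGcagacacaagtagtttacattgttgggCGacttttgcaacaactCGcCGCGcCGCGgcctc
PDK4: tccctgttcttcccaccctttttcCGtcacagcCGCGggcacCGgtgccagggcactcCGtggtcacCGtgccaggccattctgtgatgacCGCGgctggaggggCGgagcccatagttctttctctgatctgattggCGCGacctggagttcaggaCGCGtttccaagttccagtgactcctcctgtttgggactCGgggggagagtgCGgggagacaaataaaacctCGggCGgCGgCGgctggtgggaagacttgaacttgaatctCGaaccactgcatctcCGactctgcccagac
ANGPTL4: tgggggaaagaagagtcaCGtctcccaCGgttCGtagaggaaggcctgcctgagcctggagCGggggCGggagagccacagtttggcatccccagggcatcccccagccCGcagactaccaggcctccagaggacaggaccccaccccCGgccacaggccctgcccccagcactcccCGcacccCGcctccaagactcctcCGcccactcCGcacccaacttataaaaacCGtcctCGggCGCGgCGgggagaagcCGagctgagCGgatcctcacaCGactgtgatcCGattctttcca
PPARG, start with a region: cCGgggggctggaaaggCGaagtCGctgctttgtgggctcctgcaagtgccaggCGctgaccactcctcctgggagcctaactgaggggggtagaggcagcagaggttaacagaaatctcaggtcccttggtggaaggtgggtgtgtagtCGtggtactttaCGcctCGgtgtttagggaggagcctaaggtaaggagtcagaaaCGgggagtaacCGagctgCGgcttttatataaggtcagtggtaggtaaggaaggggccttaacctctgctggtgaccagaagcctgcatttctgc
PPARG, most downstream start: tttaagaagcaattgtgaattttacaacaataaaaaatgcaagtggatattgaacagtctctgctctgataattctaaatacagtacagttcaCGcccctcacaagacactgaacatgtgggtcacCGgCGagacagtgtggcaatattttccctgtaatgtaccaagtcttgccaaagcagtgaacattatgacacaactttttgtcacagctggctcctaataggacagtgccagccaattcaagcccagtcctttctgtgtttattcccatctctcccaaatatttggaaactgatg
CD36: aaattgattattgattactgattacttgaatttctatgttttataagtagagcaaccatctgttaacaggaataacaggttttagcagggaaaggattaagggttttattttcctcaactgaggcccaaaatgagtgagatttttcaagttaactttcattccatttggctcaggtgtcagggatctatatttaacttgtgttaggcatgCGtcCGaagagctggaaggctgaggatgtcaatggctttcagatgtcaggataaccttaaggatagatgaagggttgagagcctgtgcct
The RXRA window held 65 CpG, the PDK4 window 21 and the ANGPTL4 window 20. The PPARG window with a region held 10, the most downstream PPARG window 3 and the CD36 window 2. Over all 22 windows of the 9 genes, the covered ones held 9 to 65 CpG (median 23.5) and the others 1 to 52 (median 2). The ranges overlapped: the window of the first PPARG start, without a region, also held 10, and that of the second PPARA start, without a region over it, held 52.

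RefSeq listed 22 starts for the 9 genes, and 10 of them (45.5%) lay in a region of the deposited table. Over all 35116 RefSeq starts the share was 51.9%. PPARD, RXRG, PDK4 and ANGPTL4 each had 1 start, and it lay in a region. Both starts of RXRB lay in the same region, as did 2 of the 6 PPARG starts, while 1 of 2 was covered in PPARA and in RXRA. CD36 had 6 listed starts, and 0 of them lay in a region. The 10 covered windows ran from 54.0% to 85.7% G and C, with a median of 61.3%, and the 12 others had a median of 42.2%, from 35.0% to 86.7%. The exceptions at the high end were the second PPARA start (46150788) at 86.7%, just past the end of its start region at 46150666, and the second RXRA start at 64.7%. All 35116 windows showed the same order, with a median of 65.7% G and C in covered and 48.7% in other windows. Windows of neighbouring starts overlap, so the 22 are not independent. 

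**Figure D1:**
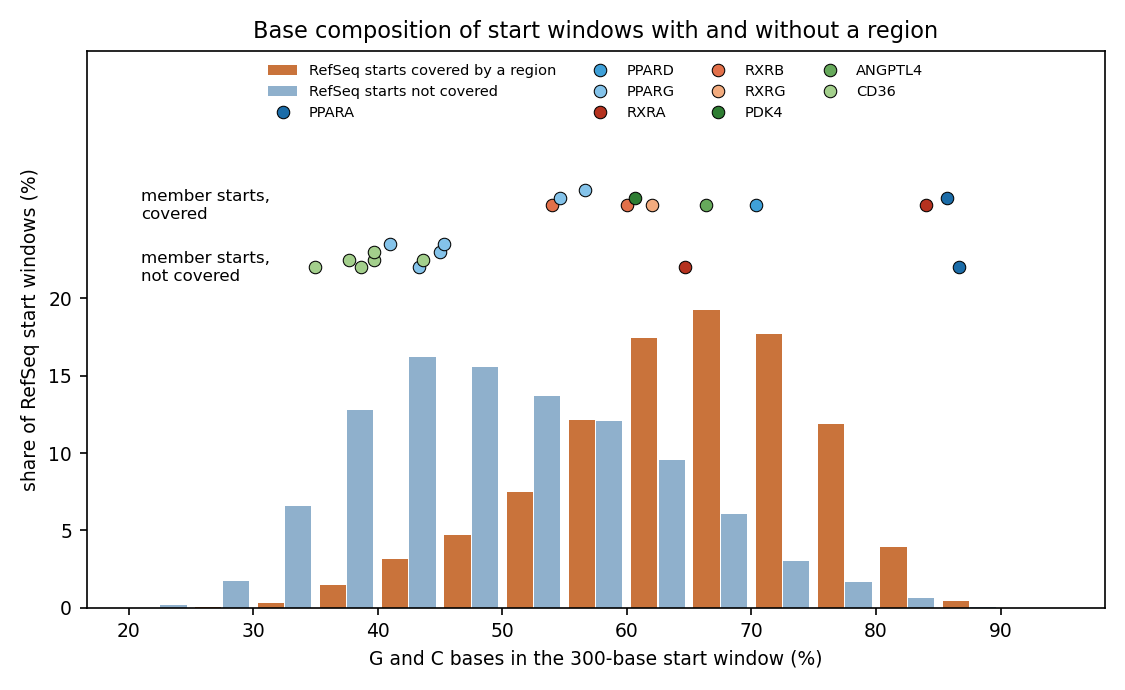
Share of G and C bases (x axis, %) in the 300-base windows around gene starts; bars give the share of all RefSeq windows in each 5% class, separately for starts inside and outside a deposited region, and points are the 22 windows of the 9 genes at arbitrary heights in 2 rows. The 10 covered member windows start at 54.0%, and all 6 CD36 windows lie between 35.0% and 43.7% without a region.

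The windows were also searched for the letters AGGTCA, the binding motif shared by many nuclear receptors, on both strands. They were found in 4 of the 22 windows (18.2%), against 13.8% of all 35116. Of these 4, 3 belong to PPARG, a pair of which overlap, and 1 to RXRG, at position -231 from its start. A direct repeat of the motif with 1 base between its copies, the arrangement that PPAR and RXR pairs are known to bind, was searched with at most 3 mismatches over both copies, and it can overlap the first motif. It was found in 4 of 22 windows (18.2%), against 20.9% of all windows. The closest match, with 2 mismatches, lay at position -147 from a CD36 start that had no region, and the matches with 3 mismatches lay before another CD36 start and before the overlapping PPARG pair. They are shown with bases equal to the motif in capitals, on the strand that matches.
CD36, 2 mismatches: AaGTCAgAGGcCA
CD36, 3 mismatches: AGGTaAtgGGTCt
PPARG, 3 mismatches: AGGTaAggaGTCA
The start windows of RXRA, PDK4 and ANGPTL4 held neither pattern within these limits. A match describes letters only, and the sequences of regions away from starts were not analysed here.

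None of the 62 regions was called changed. In the authors' deposited table (DESeq2, Benjamini-Hochberg), 0 of the 4 tested member regions had an adjusted p under 0.05, against 1.02% of all tested regions. At an unadjusted p under 0.05 the count among these 4 was also 0, against 14.8% of tested regions that were higher. All 4 lay above 0, with a median log2 fold change of 0.18 beside 0.19 for all tested regions. Over all 62 listed regions, 6 (9.68%) had an unadjusted p under 0.05 and were higher after octanoate, against 3.58% of all listed regions. Without RXRA the count was 2 of 51 (3.92%), and after subtracting the tested median from all values it was 1 of 62. The number that were lower was 0, against 0.179% of all listed regions. Of these 6 regions, 4 belonged to RXRA, 1 to PPARG and 1 to ANGPTL4, and none had a mean high enough for an adjusted p. Their shared direction is that of the whole table.

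**Figure D2:**
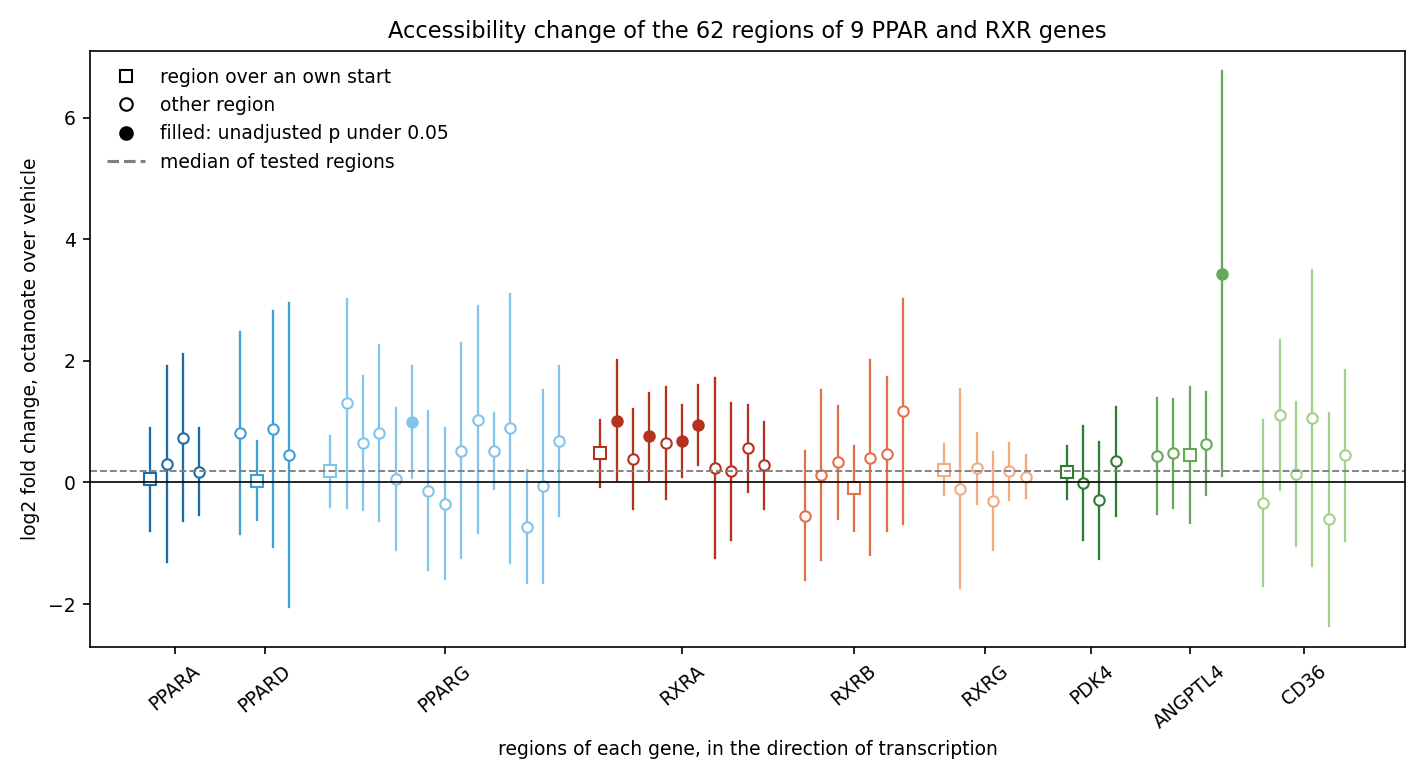
Log2 fold change of octanoate over vehicle (y axis) for each of the 62 regions, grouped by gene and ordered along the direction of transcription; bars are 95% intervals of 1.96 deposited standard errors. The 6 filled points (unadjusted p under 0.05) are all above 0, 4 of them at RXRA, and most intervals include both 0 and the tested median of 0.19 (dashed).

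The median log2 fold change over the 62 regions in the authors' deposited table was 0.39, beside 0.23 over all 125986. The 23 PPAR gene regions had a median of 0.52, the 24 RXR gene regions 0.30 and the 15 target gene regions 0.44. With 50 kb to each side the median of all member regions was 0.20, that of the receptors moved from 0.38 to 0.21 and that of the targets to 0.16. Over the gene spans alone the median of all member regions was 0.39, that of the receptors 0.41 and that of the targets 0.16. Weighted by precision, the means were 0.29 for the PPAR genes, 0.31 for the RXR genes and 0.27 for the targets, so the order of the medians was not kept. Genes within a group differed in this weighted mean. It was 0.59 at RXRA, 0.09 at RXRB and 0.13 at RXRG. Among the targets it was 0.57 at ANGPTL4, 0.11 at PDK4 and 0.29 at CD36, and the PPAR genes ran from 0.21 to 0.33. Values above 0 were found in 50 of 62 member regions (80.6%) and in 72.1% of all listed regions. The medians of all members and of the receptors were lower without weak regions. Over regions with a mean at or above the listed median of 12.2 normalized reads, they were 0.28 and 0.23, and that of the targets 0.39. Weighted by precision, the mean over the 62 regions was 0.30 beside 0.21 over all listed regions, and without RXRA it was 0.21. The median deposited standard error was 0.55 for member regions, beside 0.61 over all listed regions.

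**Figure D3:**
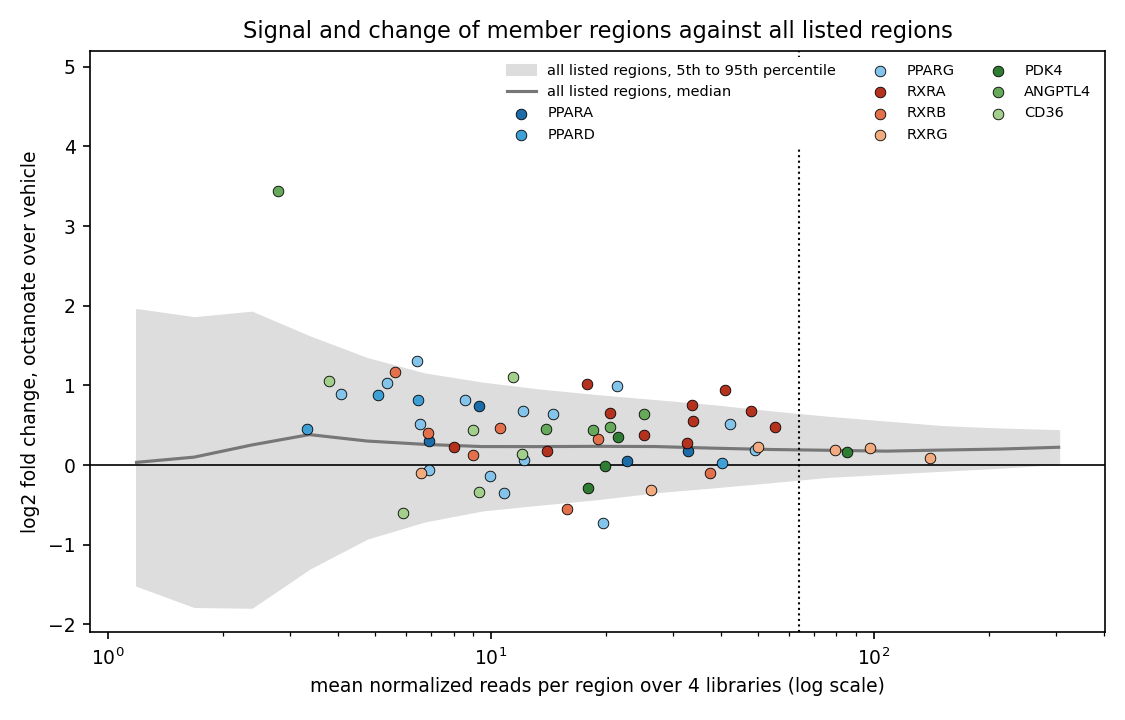
Mean normalized reads of a region (x axis, log scale) against its log2 fold change (y axis); points are the 62 member regions by gene, the grey band and line are the 5th to 95th percentile and the median of all listed regions, and the dotted line marks 63.8 normalized reads, above which the authors gave an adjusted p. The member regions narrow towards the overall median as signal grows, and the 3 RXRG regions and 1 PDK4 region right of the dotted line lie between 0.10 and 0.21.

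PPARA is the PPAR of liver and muscle oxidation and had 4 regions. Its start region on chromosome 22 (46149895 to 46150666) had a mean of 22.7 normalized reads, and the authors' deposited table gave it a log2 fold change of 0.05 ± 0.44 (standard error). Of the other regions, 2 weak ones within the gene (means of 6.91 and 9.34) had 0.30 and 0.74 with standard errors of 0.82 and 0.70. The strongest, 6349 bases past the gene and overlapping the neighbouring gene CDPF1, had a mean of 32.8 and a log2 fold change of 0.18 ± 0.37. All 4 intervals included 0.

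PPARD, the widely expressed PPAR, had 4 regions and its signal was concentrated at the start. The start region (chromosome 6, 35342200 to 35342880) had a mean of 40.2 normalized reads, and the authors' deposited table gave it a log2 fold change of 0.03 ± 0.33 (p 0.93). The 3 other regions had means of 3.31 to 6.46 normalized reads and log2 fold changes of 0.45 to 0.88 with standard errors of 0.85 to 1.27. Whole reads could be recovered for these 3 from the deposited means, though not which library is which. The region from 35385132 to 35385780 held 5, 7, 8 and 10 reads in the 4 libraries, the one from 35370471 to 35370708 held 6, 9, 15 and 16, and the upstream one held 9, 11, 19 and 20. The PPARD median of 0.64 thus came from regions of 30 to 59 reads in all.

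PPARG, the adipocyte receptor, had the most regions, 15, and none was tested. Its start region (chromosome 3, 12287503 to 12289320), which held the starts at 12289060 and 12289070 and began past the first listed start at 12287368, had a mean of 49.2 normalized reads, and the authors' deposited table gave it a log2 fold change of 0.18 ± 0.30. The remaining 4 starts lay outside regions, including the most downstream one at 12351417, whose nearest region lay 5863 bases away. Of the 15 log2 fold changes 11 were above 0 and 4 below, from -0.73 to 1.30. The region with the smallest p (12339624 to 12340330, within the gene) had a mean of 21.4. Group means implied by this mean and the fold change were 14.3 normalized reads in vehicle and 28.5 in octanoate, and the authors' deposited table gave it a log2 fold change of 0.99 ± 0.47 (unadjusted p 0.033). The largest value, 1.30 ± 0.88, belonged to a region of 6, 10, 18 and 25 reads. The lowest, -0.73 ± 0.48, belonged to a region of 19.7 normalized reads towards the 3′ end (12423882 to 12424695). The 2 strongest PPARG regions differed in place and value: the start region gave 0.18, and a region of 42.2 normalized reads deep in the gene (12405637 to 12406256) gave 0.52 ± 0.32, a gap within their errors.

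RXRA, a partner of the PPARs on DNA, stood at the high end of the 9 genes. All 11 of its regions lay above 0 in the authors' deposited table, from 0.18 to 1.02, and their median was 0.56. Among them 4 (36.4%) had an unadjusted p under 0.05 in the higher direction, against 3.46% of the 71501 listed regions whose means lay in the range of RXRA, 8.05 to 55.2 normalized reads. Those regions shared only the limits of that range. Their median mean was 16.2 normalized reads and their median standard error 0.53, beside 32.6 and 0.37 at RXRA, so the shares are not matched for signal. All 11 means were below the 63.8 reads needed for an adjusted p, and adjusted over all listed regions the lowest p at RXRA was 0.74. The difference between RXRA and the other genes was not tested, because regions of 1 gene share the same 4 libraries.

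The 4 RXRA regions lay within the gene on chromosome 9, not at its start. The smallest p belonged to the region from 134413732 to 134414577, with a mean of 40.9 normalized reads. Its implied means were 28.0 in vehicle and 53.9 in octanoate, and the authors' deposited table gave it a log2 fold change of 0.94 ± 0.34 (unadjusted p 0.0053). Its nearest neighbour upstream (134406833 to 134407731), the strongest of the 4 with 48.0 normalized reads, had 0.68 ± 0.30 (p 0.024). The region from 134379786 to 134380483 began 491 bases past the second RefSeq start and had 0.76 ± 0.37 (p 0.038), and the one from 134334995 to 134335423 had 17.9 reads and 1.02 ± 0.51 (p 0.044). The start region (134325276 to 134327260) was the strongest of all 11, with 55.2 normalized reads, and the authors' deposited table gave it 0.48 ± 0.28 (p 0.092). The weakest pair, at the 3′ end of the gene with 8.05 and 14.0 reads, had 0.23 and 0.18. Beyond the 3′ end, the 2 flanking regions of 33.9 and 32.6 reads had 0.56 and 0.28.

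The surroundings of RXRA were also above the rest of the table. The 75 other regions within 1 Mb of the gene reached a median log2 value of 0.45, from the authors' deposited table, and 82.7% of them lay above 0. The other 5502 regions of chromosome 9 had a median of 0.21. RXRA lies 3.77 Mb from the outermost listed region of its chromosome. Unadjusted p-values under 0.05 in the higher direction were found for 2 of the 75 surrounding regions (2.67%), beside 3.36% of the rest of chromosome 9 and 3.58% of all listed regions, so the surroundings were above the rest by median and not by this share. After subtracting the tested median of 0.19 from each value, 1 RXRA region (134413732 to 134414577) had a recomputed p under 0.05 (0.025), the 1 such region among all 62, against 1.08% of all listed regions that were higher. After subtracting the median of the surroundings, chosen after the data were seen, the count at RXRA was 0 and its median was 0.10. What part of the RXRA values belongs to the wider stretch was not tested.

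**Figure D4:**
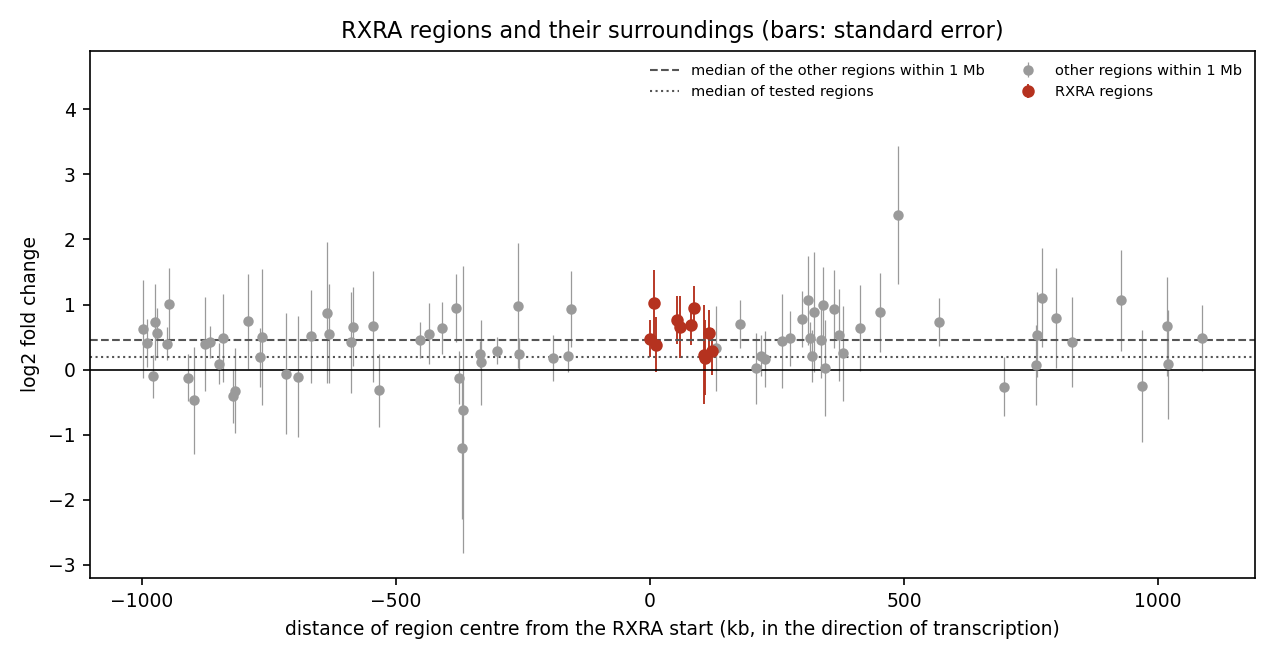
Log2 fold change (y axis, bars are the deposited standard error) of the 11 RXRA regions and of the 75 other regions within 1 Mb, by distance of the region centre from the RXRA start (x axis, kb). The RXRA regions lie between 0.18 and 1.02 and the dashed median of the surroundings at 0.45, above the dotted tested median of 0.19.

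The window of 1 Mb was computed for each of the 9 genes. The median log2 fold change of the surroundings was -0.0068 at PPARD, -0.0092 at RXRB and -0.038 at CD36, 0.08 at PDK4, 0.17 at ANGPTL4 and 0.20 at PPARA. It was 0.30 at PPARG and 0.35 at RXRG. The gene's own median lay above that of its surroundings in 7 of the 9 genes and below it at RXRG, by -0.21, and at PDK4, by -0.0031. The gap was widest at PPARD, 0.64, where the gene's median rests on the 3 regions of few reads given above.

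RXRB is a compact gene in the major histocompatibility region and shares its surroundings with neighbouring genes. Of its 7 regions, 6 overlapped another protein-coding gene (COL11A2, SLC39A7, HSD17B8 or RING1), so their signal cannot be given to RXRB alone. The start region (chromosome 6, 33199906 to 33201180), which also overlaps SLC39A7, had a mean of 37.4 normalized reads, and the authors' deposited table gave it a log2 fold change of -0.10 ± 0.35, the lowest of the 8 start regions. The other 6 ranged from -0.55 ± 0.54 at RING1 to 1.17 ± 0.94 at COL11A2, the latter a region of 5, 10, 15 and 22 reads. All 7 unadjusted p-values were 0.21 or above.

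RXRG, the RXR with the most restricted expression, known from muscle, brain and neural crest derived cells, had the strongest of the 62 regions by mean normalized reads, past its 3′ end, and the strongest of the 8 start regions. Per kb of region, the 2 regions beyond its 3′ end (chromosome 1) held 152 and 124 normalized reads, its start region 47.5. These 3 were tested, and together with the PDK4 start they had the smallest standard errors of the 62 regions. The flanking region from 165392829 to 165393752, with 140 normalized reads, had, in the authors' deposited table, a log2 fold change of 0.10 ± 0.18 (adjusted p 0.84). The next one (165397753 to 165398392, 79.6 reads) had 0.19 ± 0.24 (DESeq2 adjusted p 0.75) and the start region (165443465 to 165445524, 97.9 reads) had 0.21 ± 0.21 (DESeq2 adjusted p 0.68). The 95% intervals of the 3 ended at 0.44, 0.66 and 0.63 on the log2 scale. The 3 weaker RXRG regions within the gene ran from -0.31 ± 0.41 to 0.23 ± 0.30.

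Among the targets, PDK4 had the strongest region, at its start. The start region on chromosome 7 (95596048 to 95597301) had a mean of 85.5 normalized reads. Its implied means were 80.6 in vehicle and 90.3 in octanoate, and the authors' deposited table gave it a log2 fold change of 0.16 ± 0.22 (DESeq2 adjusted p 0.77). Its 95% interval ran from -0.28 to 0.60. The 3 other PDK4 regions, 1 within the gene and 2 past its 3′ end, had means of 17.9 to 21.5 and log2 fold changes of -0.01 ± 0.48, -0.29 ± 0.49 and 0.35 ± 0.46. With a median of 0.08, PDK4 was the lowest of the 9 genes by unweighted median. Weighted by precision, its mean was 0.11 and that of RXRB was lower, 0.09.

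ANGPTL4 had 5 regions on chromosome 19, all above 0. Apart from the weakest, they lay close together: 0.44 and 0.48 upstream, 0.45 at the start (8363845 to 8364388, 13.9 normalized reads) and 0.64 within the gene (8366961 to 8367765, 25.1 reads), with standard errors of 0.43 to 0.57 in the authors' deposited table. Each of these 4 intervals included 0. The region 2001 bases past the gene (8376371 to 8376612) had the largest log2 fold change of all 62, 3.44 ± 1.70 (unadjusted p 0.043), and the lowest mean, 2.78 normalized reads. It held 1, 1, 12 and 12 reads in the 4 libraries, 26 in all, with implied means of 0.47 normalized reads in vehicle and 5.08 in octanoate, and its 95% interval ran from 0.10 to 6.77.

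CD36 had no listed region over a start, and its 6 regions were weak, with means of 3.79 to 12.1 normalized reads. Of these, 5 lay within the gene on chromosome 7 and 1 lay 2004 bases past it. Log2 fold changes ran from -0.61 ± 0.89 to 1.11 ± 0.63 in the authors' deposited table, 4 above 0 and 2 below. The 1.11 belonged to a region of 11.5 normalized reads (80614911 to 80615375, unadjusted p 0.078). The strongest region (80622595 to 80622933, 12.1 reads) had 0.14 ± 0.60. The lowest value belonged to a region of 10, 12, 14 and 16 reads.

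The 8 start regions were measured with smaller errors than the rest, with a median standard error of 0.31 and a median of 44.7 normalized reads, beside 0.60 and 12.2 for the 54 others. In the authors' deposited table they ran from -0.10 at RXRB through 0.03 (PPARD), 0.05 (PPARA), 0.16 (PDK4), 0.18 (PPARG), 0.21 (RXRG) and 0.45 (ANGPTL4) to 0.48 (RXRA), and neighbours in this order did not differ beyond their standard errors of 0.21 to 0.57. Their median was 0.17 and that of the 54 other member regions 0.44. All listed regions had the same order, 0.14 for the 12559 over a RefSeq start and 0.25 for the rest. At an unadjusted p under 0.05, 0 of the 8 were higher, against 5.19% of all regions over a RefSeq start. Per kb of region, the PDK4 start held the most signal of the 8 with 68.2 normalized reads, then PPARD with 59.0 and RXRG with 47.5, and ANGPTL4 the least with 25.6.

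Just inside the 10 kb limit lay the upstream PPARD region, 9968 bases from the gene, at 0.82 ± 0.85 (log2), and an RXRA region 8869 bases away with 0.28 ± 0.36, in the authors' deposited table. Just outside lay a region 10123 bases from PPARG, with 95.7 normalized reads and 0.08 ± 0.22, and one 10950 bases from RXRG with -0.73 ± 0.55, slightly below the lowest of the 62 member regions.

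Other genes of the pathway were read from 3 lists by the same 10 kb rule. A region counted for a gene can thus lie over a neighbouring gene, and whose start a region covers was not recorded for these lists. Of 35 further PPAR target genes 32 had regions, 99 in all, and their median log2 fold change was 0.21, beside 0.23 over all listed regions. Of the 18 tested, 0 had an adjusted p under 0.05 in the authors' deposited table (DESeq2). Over all 99, 5 (5.05%) were higher and 0 lower at an unadjusted p under 0.05, beside 3.58% and 0.179% of all listed regions. The 5 lay 1 each at LPIN1, KLF10, PLIN1, PLIN2 and PCK1. The tested region with the smallest p lay at LPIN1, a phosphatidate phosphatase of triglyceride synthesis (chromosome 2, 11743926 to 11744942), with 105 normalized reads and a log2 fold change of 0.58 ± 0.21 (DESeq2 adjusted p 0.13). It was followed by regions at the transcription factor gene KLF10 (0.33 ± 0.12, DESeq2 adjusted p 0.15) and at CPT2, which completes the carnitine shuttle of fatty acids (0.30 ± 0.24, DESeq2 adjusted p 0.57).

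Regions were found at all 13 further receptor genes that pair with RXR, 147 in all, and their median was 0.15 on the log2 scale. Of the 147, 49 lay at RARB (median 0.17) and 39 at THRB (median 0.01). Of the 14 tested, 0 had an adjusted p under 0.05 in the authors' deposited table (DESeq2). At an unadjusted p under 0.05, 4 of the 147 were higher (2.72%), below the 3.58% of all listed regions, and 1 was lower. The higher ones were 2 at THRB and 1 each at RARB and NR1I3, and the lower one lay at THRB. The tested regions with the smallest p lay at the thyroid hormone receptor gene THRB (0.41 ± 0.20, DESeq2 adjusted p 0.31), the xenobiotic receptor gene NR1I3 (0.39 ± 0.20, adjusted p 0.32) and the retinoic acid receptor gene RARB (0.28 ± 0.25, adjusted p 0.62).

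The 15 coregulator genes had 182 regions with a median of 0.28, and 0 of the 17 tested had an adjusted p under 0.05 in the authors' deposited table (DESeq2). At an unadjusted p under 0.05, 6 were higher (3.30%), about the 3.58% of all listed regions, and 0 were lower. Among the 6 were 2 each at PPARGC1A and PRDM16. PRDM16, a coregulator of brown fat, held the tested region with the smallest p (0.60 ± 0.23, DESeq2 adjusted p 0.17). The corepressor enzyme gene HDAC3 (0.37 ± 0.20, DESeq2 adjusted p 0.38) and the coactivator gene NCOA1 (0.33 ± 0.20, DESeq2 adjusted p 0.44) followed. Both regions covered a RefSeq start, which need not be that of the named gene. Without PPARGC1A, the other 142 regions had a median of 0.32, and 51 of them lay at PRDM16, with a median of 0.42.

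**Figure D5:**
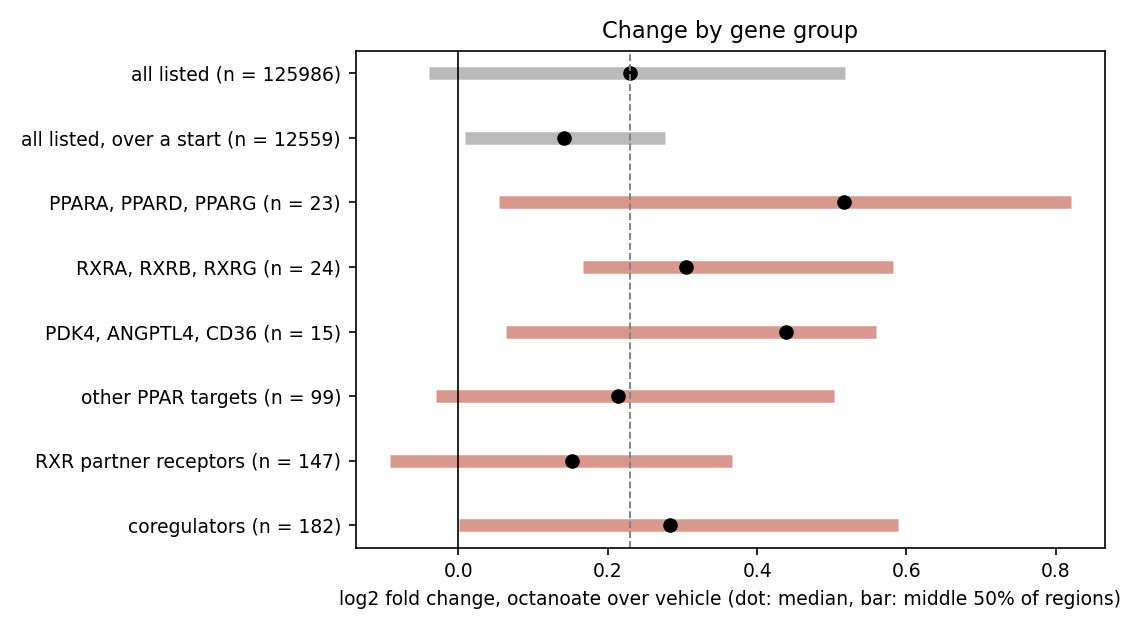
Median (dot) and middle 50% (bar) of the log2 fold changes of the regions of each gene group (x axis), with the number of regions; the dashed line is the median of all listed regions at 0.23. The 3 member groups lie at 0.30 to 0.52 and the 3 further lists at 0.15 to 0.28 as unweighted medians with the 10 kb window. The bars of all groups overlap. Weighted by precision, the member groups lie at 0.27 to 0.31 and the lists at 0.13 to 0.22. Within the member groups the weighted means by gene run from 0.09 at RXRB to 0.59 at RXRA.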

How the data were processed

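The authors processed the reads, and the submitters' processing notes name Trim Galore, cutadapt, FastQC, Bowtie2, Picard, MACS2, featureCounts, DESeq2, bedtools 2.29.1 and the build hg38; their parameters, how regions were merged and whether cut positions were shifted are not given in the sources used here. The deposited table compares octanoate with vehicle over 2 libraries each. Its signal column is, per the file headers, the mean normalized read count, with a scaling that is not stated. The deposited log2 fold change comes with its standard error, and the deposited score equals their quotient. The deposited p-value is the two-sided normal p of that score, and the deposited adjusted p equals Benjamini-Hochberg over the 11185 regions with the highest means; it is listed as 1 elsewhere and was read there as not tested.

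Regions were matched to RefSeq genes and starts of GRCh38.p14 (Python 3.11.15, pandas 2.3.3, SciPy 1.17.1), counting positions from 1. Intervals are 1.96 standard errors to each side. Implied group means assume that both groups average to the deposited mean. For the 15 member regions with a mean under 8, whole reads were recovered as the 1 exact sum of 4 fixed values per read (0.413329, 0.431424, 0.433678 and 0.51189), given from lowest to highest because no value is assigned to a library; among 1500 shifted sums 4.60% had a solution. Other counts per library are unknown, so no counting interval is given. No test of the groups was computed here. Centred p-values were recomputed from the deposited fold changes and standard errors.

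Every member is named, with its start region (CD36 has none), its strongest region and the one with the smallest p; from the lists, the 3 tested regions with the smallest p, 1 per gene. The members and lists were chosen with earlier results of these data known. Likeness to other genes across samples could not be computed from 1 comparison. Scripts were tested on simulated data.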

Additional observations from a re-analysis of the deposited data

How the results depend on the processing

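No paired analysis was possible because the deposited table has no value per library, and for the same reason leaving out a library, other scalings and count tests were not run. The count of member regions with an adjusted p under 0.05 was 0 under each of the 6 alternatives: the gene span alone, a 50 kb window, centring on the tested median, thresholds of 0.1 and 0.01, and adjustment over all listed regions. The count of tested member regions with an unadjusted p under 0.05, which was 0, became 1 of 13 with the 50 kb window (7.69%, beside 14.8% of all tested regions; a region near CD36, log2 fold change 0.45, adjusted p 0.33) and 6 when all listed regions were counted. That count of 6 became 1 after centring on the tested median and 2 without RXRA, and the RXRA count of 4 became 1 after that centring and 0 after centring on its surroundings, each subtracting a constant. The RXRA median of 0.56 became 0.10 relative to its surroundings. The member median of 0.39 was 0.20 with the 50 kb window, 0.21 after centring and 0.17 at own starts. The median of RXR partner receptors was -0.04 after centring, where 0.19 was subtracted. The other 32 of 33 recomputed medians and weighted means stayed above 0, as did the median of all listed regions, 0.23. Chosen after the data were seen were every alternative for the count over all listed member regions and for RXRA, and the means weighted by precision. So were the medians without RXRA, at own starts, without PPARGC1A and without the target region of lowest mean. The target median of 0.44 was 0.16 over the gene spans alone and with the 50 kb window, and the receptor median of 0.38 was 0.21 with that window. The median standard error of 0.55 on the log2 scale limits what was detectable at this depth in member regions.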

Other observations

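Genes were also ordered by the share of their regions with an unadjusted p under 0.05 in the higher direction, by the same 10 kb rule; the order was looked at after the RXRA values were seen. Of 1836 protein-coding genes with at least 10 regions, 7 reached the 36.4% of RXRA, RXRA included, and 53 (2.89%) had a median log2 fold change at or above its 0.56. The others were PRKCZ, a protein kinase C (5 of 10 regions, median 0.63), AGO2, the slicer of RNA interference (5 of 11, 0.56), INPP5A, an inositol phosphatase (4 of 10, 0.57), ESYT2 (4 of 10, 0.38), the transcription factor gene EBF3 (4 of 11, 0.45) and LOC107984449 (5 of 11, 0.40). The distances of the 7 genes from the outermost listed region of their chromosome were 0.488 Mb (ESYT2), 1.00 Mb (INPP5A), 2.04 Mb (PRKCZ), 3.77 Mb (RXRA), 3.82 Mb (EBF3), 4.41 Mb (AGO2) and 6.02 Mb (LOC107984449). Within 5 Mb lay 6 of these 7 genes, and 122 of the 1836 (6.64%). EBF3 and INPP5A share a chromosome arm, and the distances were looked at after the RXRA value was seen and were not tested.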
